A study of Mus musculus with 180 samples.

Results

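When naive mouse embryonic stem cells (ESCs) are moved into epiblast-like cell (EpiLC) culture, they change their RNA over much of the genome. Here that change was followed in the 3 C57BL/6J (B6) cell lines of the series, B41, B44 and B51, each measured in both states. The comparison covered the 11755 genes listed in both the ESC table and the EpiLC table, of 13710 listed in either. A further 975 genes were listed in the ESC table only and 980 in the EpiLC table only.

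The series holds 180 samples and asks how genetic background shapes the chromatin and RNA of pluripotent cells in B6, DBA/2J (D2), their BXD recombinant inbred descendants and F1 hybrids. It measured bulk RNA, open chromatin by ATAC-seq (transposase-accessible chromatin sequencing), protein binding by ChIP-seq in ESCs, and single-cell RNA in embryoid bodies. The 2 groups compared here were B6 naive ESCs and B6 ESCs transitioned to formative EpiLCs, with 1 RNA library per line in each state. No genetic modification is named in the labels for these lines. All were derived and kept under a published naive ESC protocol and were differentiated by a published EpiLC protocol. How long the cells spent in EpiLC medium is stated in the labels for the embryoid body protocol only. The sources used here do not say whether the 3 lines came from different embryos, or whether feeder cells were present. The p-values below therefore measure the spread between these lines. The 2 states were also deposited as separate tables, so the state and anything that differed between the preparation of the tables cannot be told apart.

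ESCs in naive culture correspond to the epiblast before implantation. A network of transcription factors that includes Klf4, Tfcp2l1, Esrrb, Tbx3 and Nanog holds them there, with help from LIF (leukaemia inhibitory factor) acting through STAT3. EpiLCs correspond to the epiblast shortly after implantation. They are made by removing the naive supports and adding FGF2 and activin, which act through ERK and SMAD signalling. On the way the cells give up the naive factors, keep the core factor Pou5f1, switch on formative factors such as Otx2 and Pou3f1, and produce the enzymes Dnmt3a and Dnmt3b that remethylate the genome.

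All RNA values below are the authors' normalised values, rescaled so that each library totals 1000000 over the shared genes, and are given in ppm, parts of that total. No correction for gene length was made here, and whether the deposited values hold one is not known. Tests compare libraries within a gene. Sums over lists and rankings of genes by level only describe the values. Values for the lines are always given in the order B41, B44, B51. A log2 difference is EpiLC minus ESC, paired by line, on the scale log2(ppm + 1). A gene is said to have risen or fallen where the Benjamini-Hochberg adjusted p of limma over all genes tested was under 0.05. Shared genes held 99.5 to 99.6% of each library's deposited signal. The number of reads behind the values is unknown, so no counting error could be given.

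Of 11711 genes tested, 8710 changed (74.4%), with 5369 higher in EpiLCs (45.8%) and 3341 lower (28.5%). More than 2-fold, 1328 genes rose (11.3%) and 1194 fell (10.2%). All 2522 of these moved in the same direction in each of the 3 lines, and in 2520 the ESC and EpiLC libraries did not overlap. Over all genes tested the libraries of the states did not overlap in 9106 (77.8%), so separation by itself says little about any single gene. At the extreme, 61 genes rose and 139 fell by more than 3 on the log2 scale. The count of rises and falls depended on the scaling, because the median over all genes was 0.16 after equal totals and -0.0012 after median-ratio scaling. With the latter, 4250 genes rose and 4234 fell, and beyond 2-fold 953 rose and 1462 fell. Small differences are therefore to be read against a shift of that size. Counts in the gene lists below are to be read against the shares of all genes that rose (45.8%) and fell (28.5%). In bulk RNA, fewer cells of a type and less RNA per cell cannot be told apart.

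The naive network fell almost whole. Of 17 tested genes of the naive list, 16 fell, against 28.5% of all genes, and 1 rose. The median log2 difference was -3.85 against 0.16 for all genes. 15 of the 16 falls exceeded 2-fold. Tfcp2l1 (ENSMUSG00000026380, chr1:118627945-118685168, mouse build GRCm38), a transcription factor that sustains naive self-renewal downstream of STAT3, was at 1420.2, 1489.8 and 1469 in ESCs and 9.07, 6.81 and 7.74 in EpiLCs (log2 difference -7.37, SE 0.091, limma adjusted p = 2.00e-11). Every ESC library lay far above every EpiLC library. Tbx3 (ENSMUSG00000018604, chr5:119670669-119684724), a T-box factor of the same network, was at 252, 267 and 273 in ESCs and 1.08, 1.08 and 1.64 in EpiLCs (log2 difference -6.88, SE 0.092, limma adjusted p = 2.33e-11). Klf4 (ENSMUSG00000003032, chr4:55527143-55532466), a zinc finger activator of naive genes, was at 312, 282 and 283 in ESCs and 1.82, 1.95 and 2.13 in EpiLCs (log2 difference -6.63, SE 0.089, limma adjusted p = 2.33e-11). For both, the EpiLC libraries were close to the bottom of the scale in all 3 lines.

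Esrrb, an orphan nuclear receptor that activates naive genes, went from 562, 588 and 556 in ESCs to 14.4, 12.8 and 12.95 in EpiLCs (log2 difference -5.31). Nr5a2, a nuclear receptor of the same network, stood at 99.8, 95.6 and 89.2 in ESCs and 1.86, 1.95 and 3.31 in EpiLCs (log2 difference -4.85, SE 0.14, limma adjusted p = 3.49e-09). Nanog, the homeodomain factor of the network, was at 664, 714 and 671 in ESCs and 32.3, 25.7 and 23.6 in EpiLCs (log2 difference -4.61, SE 0.097, limma adjusted p = 3.29e-10). These 3 fell in every line, and Nanog retained a higher EpiLC level relative to its ESC level than Klf4 or Tbx3 did. Klf5 (-4.34), Fbxo15 (-3.87), Dppa5a (-3.85), Tdh (-3.2), Klf2 (-2.94), Pecam1 (-2.86), Sox15 (-2.76) and Nr0b1 (-2.28) fell as well, given here as log2 differences. Zfp42, long used as a marker of naive cells, fell less, from 78.8, 79.9 and 74.4 to 25.6, 31.3 and 25.3 ppm (log2 difference -1.48, SE 0.083). Dppa3 was the weakest member, at 17.4, 14.04 and 5.66 in ESCs and 5.41, 7.14 and 5.52 in EpiLCs (log2 difference -0.81, SE 0.29, limma adjusted p = 0.0495). Its ESC values spread 3-fold between lines and overlapped the EpiLC values, and without line B44 it no longer passed (log2 difference -0.78, limma adjusted p = 0.355). The call was also lost with a pseudocount of 5 (adjusted p = 0.05996) and under 3 other settings, which gave adjusted p from 0.06995 to 0.103.

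Gbx2 went the other way from the rest of the naive list. This homeobox gene can support naive self-renewal under LIF and is also expressed in the early postimplantation embryo. Its values were 3.87, 6.69 and 6.56 in ESCs and 81.1, 65.3 and 85.7 in EpiLCs (log2 difference 3.57, SE 0.17, limma adjusted p = 5.14e-07), and each line rose. Prdm14, Spic and Tcl1 of the naive list were listed in the ESC table only. On the same rescaled basis Tcl1 was at 59.04, 50.4 and 53.5. Prdm14, which represses DNA methyltransferase genes in naive cells, was at 30.4, 36.1 and 30.8.

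**Figure D1:**
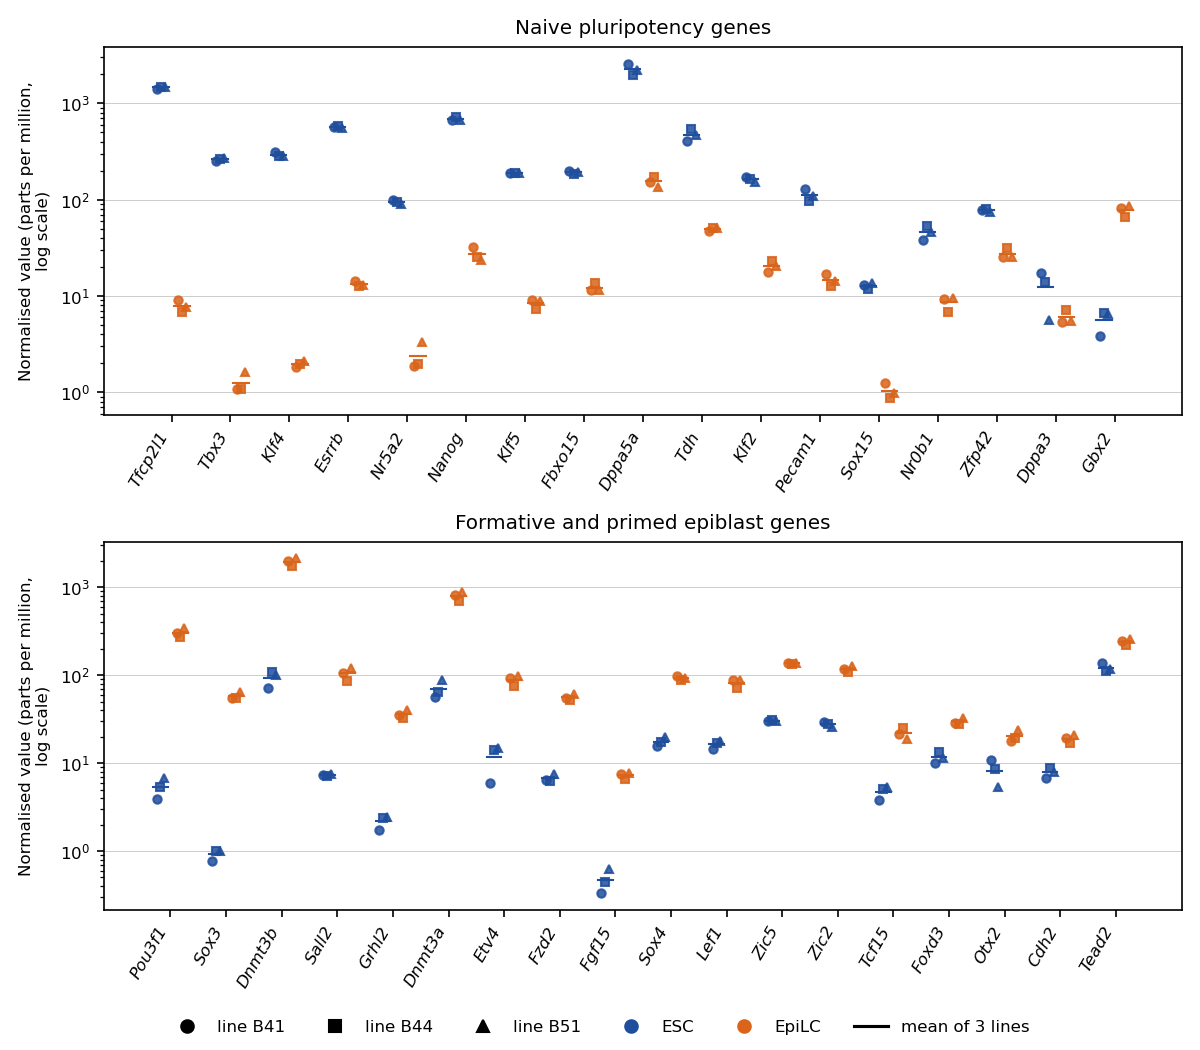
Normalised values in ppm (log scale) of the tested naive genes (upper panel) and 18 of the 19 tested formative and primed epiblast genes (lower panel) in each B6 library, with 1 symbol per line, ESCs in blue, EpiLCs in orange and a bar at the mean of 3 lines. In the upper panel 16 of 17 genes fell and Gbx2 rose, and Dppa3 shows overlapping states; in the lower panel every gene shown rose, with Tead2 showing the smallest difference.

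All 19 tested members of the formative and primed epiblast list were higher in EpiLCs, against 45.8% of all genes, 17 of them more than 2-fold, and their median log2 difference was 2.34. With median-ratio scaling 18 of the 19 passed. Pou3f1 (ENSMUSG00000090125, chr4:124656807-124660655), a POU factor of the postimplantation epiblast that acts with Otx2, was at 3.92, 5.33 and 6.72 in ESCs and 303, 268 and 340.0 in EpiLCs (log2 difference 5.61, SE 0.11, limma adjusted p = 2.36e-10). Sox3, a SoxB1 factor of epiblast and neural progenitors, was at 0.779, 1.003 and 0.992 in ESCs and 55.3, 55.2 and 64.7 in EpiLCs (log2 difference 4.95, SE 0.104, limma adjusted p = 3.29e-10). Dnmt3b, which methylates DNA de novo, was at 71.1, 108 and 99.1 in ESCs and 1992, 1739.6 and 2117 in EpiLCs (log2 difference 4.4, SE 0.13, limma adjusted p = 9.34e-09). All 3 were low in every ESC library and high in every EpiLC library. Dnmt3a, the other enzyme with this activity, was at 56.5, 63.8 and 87.4 in ESCs and 803, 699 and 869 in EpiLCs (log2 difference 3.51, SE 0.101, limma adjusted p = 1.72e-09).

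Further rises came from Sall2 (log2 difference 3.65), the epithelial regulator Grhl2 (3.55), the Wnt receptor gene Fzd2 (2.88), Fgf15 (2.49), Sox4 (2.34), Lef1 (2.27), Zic5 (2.13), Zic2 (2.04) and Tcf15 (1.99). Otx2, the homeobox factor that redirects Pou5f1 to formative enhancers, rose more modestly, from 10.8, 8.48 and 5.4 to 17.6, 19.3 and 24 ppm (log2 difference 1.24, SE 0.25, limma adjusted p = 0.00636). The states did not overlap, but the rise differed between lines and without line B44 it no longer passed (log2 difference 1.31, limma adjusted p = 0.176). Etv4, an ETS factor that responds to FGF, was at 5.93, 14.2 and 14.8 in ESCs and 92.2, 76.1 and 97.9 in EpiLCs, with B41 lowest among the ESC libraries (log2 difference 2.91, SE 0.34, limma adjusted p = 0.00416). It missed the threshold without B44 (3.2, adjusted p = 0.05798) and without B51 (3.05, adjusted p = 0.0798). Fgf5, the textbook EpiLC marker, was listed in the EpiLC table only, at rescaled values of 23.6, 25.2 and 31.3.

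Of 15 tested core pluripotency genes 8 rose and 4 fell, close to the shares of all genes (45.8% and 28.5%), with a median log2 difference of 0.47. Pou5f1, the POU factor that both states require, was at 819, 849 and 901 in ESCs and 706, 756 and 708 in EpiLCs (log2 difference -0.24, SE 0.089, limma adjusted p = 0.0303). EpiLC libraries were all below ESC libraries, by a margin so small that the call was lost without B41 (-0.26, adjusted p = 0.161) or without B51 (-0.19, adjusted p = 0.277). Sox2, its DNA-binding partner, fell clearly, from 364, 316 and 299 to 76.2, 69.9 and 72.98 (log2 difference -2.14, SE 0.077, limma adjusted p = 6.70e-09). Tdgf1, the Nodal co-receptor Cripto, fell too, from 1198, 963 and 1202 to 286, 256 and 262 (log2 difference -2.05). Utf1 (2.31), Lin28a (2.03), Dppa2 (1.49), Mycn (1.04) and Zscan10 (1.01) rose. Lin28a, an RNA-binding protein that blocks maturation of let-7 microRNAs, reached 1097, 1042 and 1194 ppm from 233, 287 and 295.

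By a rule that took the 12 largest rises and 12 largest falls among genes beyond 2-fold with a mean of at least 10 ppm in the higher state, the extremes held genes outside these lists. Pcdh1, a protocadherin, had the largest rise of the 12, from 1.67, 2.01 and 2.09 to 186, 164 and 236 (log2 difference 6.06, SE 0.105, limma adjusted p = 1.37e-10). Pim2, a serine/threonine kinase, went from 13.4, 12.03 and 13.7 to 744, 705 and 818 (log2 difference 5.75, SE 0.072, limma adjusted p = 2.00e-11). Both were low in all ESC libraries and high in all EpiLC libraries. The semaphorins Sema6a (5.55) and Sema3e (4.85), the neuronal intermediate filament gene Ina (5.06), the transcription factor gene Wt1 (4.86), the planar cell polarity gene Prickle1 (4.77), the endocytic receptor gene Lrp2 (4.46) and Enpp3 (4.44) followed.

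Among the falls, Jam2, a junctional adhesion molecule, was at 239, 224 and 246 in ESCs and 0.606, 0.582 and 0.7999 in EpiLCs (log2 difference -7.16, SE 0.087, limma adjusted p = 2.00e-11). Its EpiLC values were below 1 ppm in each line. A2m (-6.01), the autophagy receptor Calcoco2 (-5.01), the epithelial ETS factor Elf3 (-4.87) and Cpt1a (-4.87) also fell. Cpt1a, which admits long-chain fatty acids to mitochondria, was at 156, 129 and 138 in ESCs and 4.28, 2.66 and 4.88 in EpiLCs. Col1a1 (-5.54), a fibroblast gene, belonged to the same 12 and is taken up below.

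The 33 BXD lines measured in both states gave the same contrast in cells the B6 comparison did not use. There 9786 of 11710 genes tested changed (83.6%). Of the 2522 genes beyond 2-fold in B6, 2356 (93.4%) changed in the same direction. Each of the 24 genes of largest change moved as in B6 in all 33 lines. Of the naive list, 16 of 17 changed as in B6, and Dppa3 was higher in EpiLCs in 14 of 33 lines. Of the formative list, 16 of 19 did. Foxd3 was higher in only 15 of 33 lines, against 33 for Pou3f1 and 32 for Otx2.

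**Figure D2:**
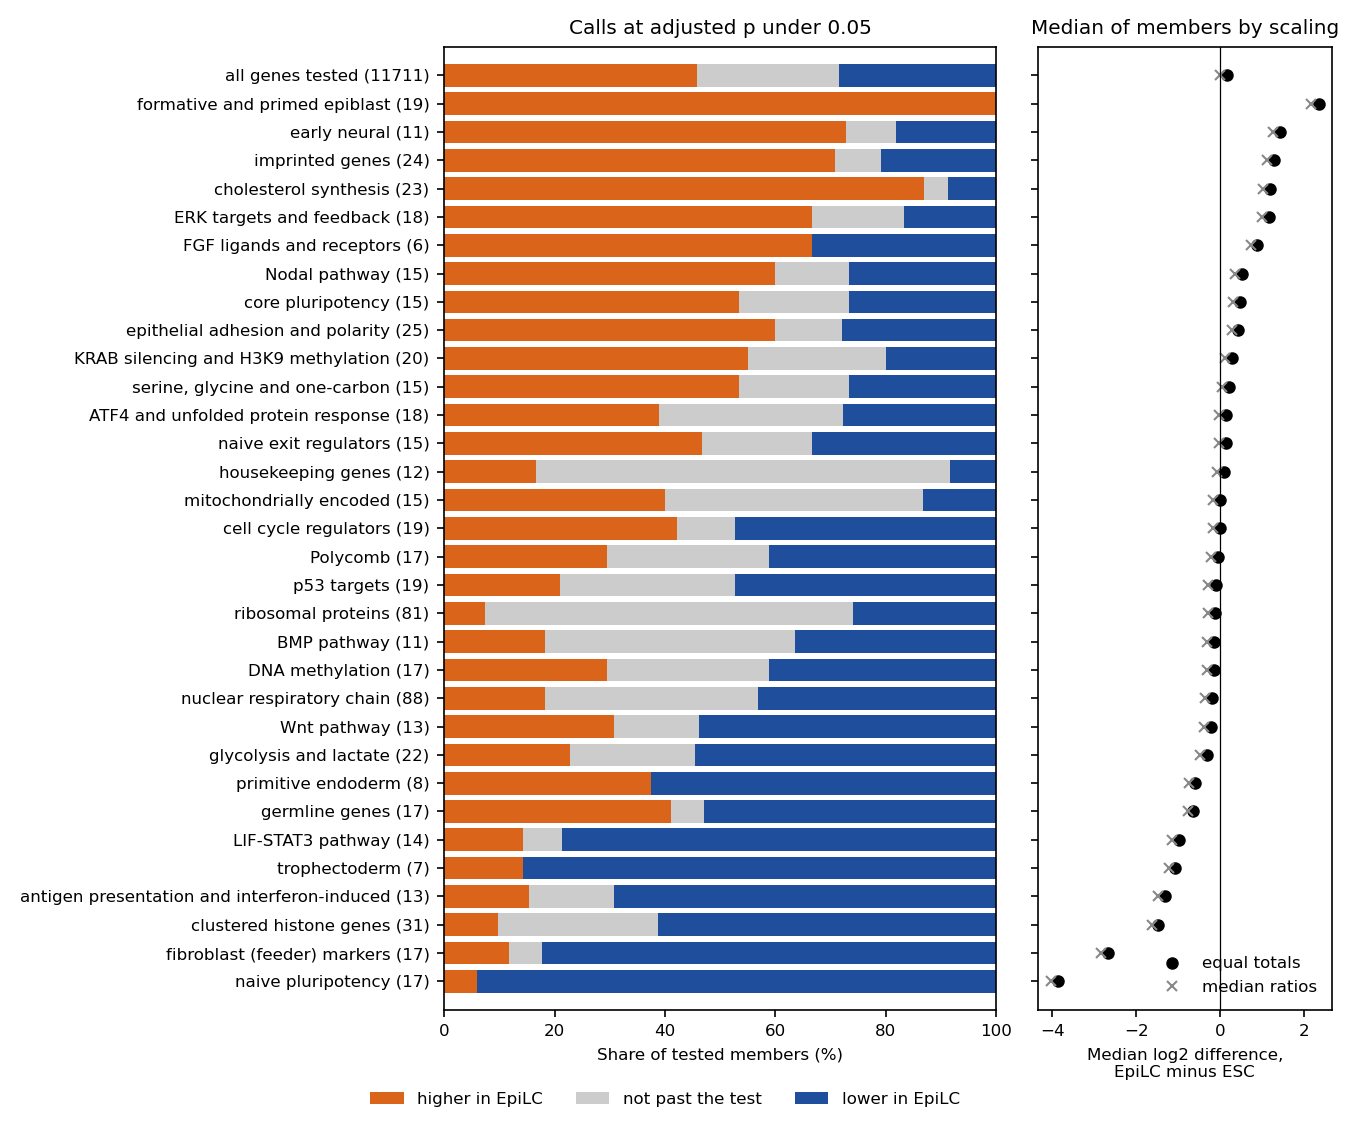
Left, share (%) of the tested members of each gene list that rose (orange), fell (blue) or did not pass the test (grey) at adjusted p under 0.05, with the number tested in brackets and all 11711 genes on top; right, the median log2 difference of each list with equal totals (filled circles) and with median-ratio scaling (crosses). The formative list has the highest median and the naive list the lowest, and the other scaling moves all medians to the left by a similar amount.

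Genes of the FGF list moved both ways. Fgf4, the autocrine ligand of naive cells, fell from 339, 288 and 289 to 79.4, 67.7 and 81.5 (log2 difference -1.99, SE 0.082, limma adjusted p = 1.64e-08). Fgfr2, a receptor, rose from 3.904, 2.81 and 3.45 to 23.6, 21.7 and 26.7 (log2 difference 2.51, SE 0.11, limma adjusted p = 2.35e-08), and Fgfr1, the main receptor of ESCs, from 70.6, 65.8 and 73.9 to 123, 99.6 and 132 (0.74). Neither overlapped between states. Fgf13, an intracellular member of the family, rose (2.47), as did the FGF-binding protein Fgfbp1 (1.0), while the ligand Fgf17 fell (-1.46). All 6 tested members thus changed, 4 upwards and 2 downwards. Fgf3, Fgf10, Fgfr3 and Fgfr4 of this list were listed in the ESC table only. The ligand Fgf15, counted in the formative list, rose as given above, so ligands did not move as a class.

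ERK targets and feedback genes rose in 12 of 18, against 45.8% of all genes, and fell in 3, with a median log2 difference of 1.17 against 0.16. Dusp6, a phosphatase that removes the activating phosphates of ERK, was at 8.35, 12.6 and 8.52 in ESCs and 240.1, 198 and 245 in EpiLCs (log2 difference 4.42, SE 0.16, limma adjusted p = 4.43e-07). Spry4, an inhibitor upstream of ERK, was at 1.14, 3.42 and 4.41 in ESCs and 76.1, 57.99 and 99.8 in EpiLCs (log2 difference 4.38, SE 0.305, limma adjusted p = 3.05e-04). The EpiLC libraries were uniformly high, and line B41 had the lowest ESC value of Spry4. Spred1 (2.76), Dusp4 (3.18), Egr1 (1.62) and Dusp5 (1.3) rose as well. Myc was at 2.42, 8.204 and 6.796 in ESCs and 88.1, 71.2 and 105 in EpiLCs, again with B41 lowest in ESCs (log2 difference 3.81, SE 0.41, limma adjusted p = 0.00415), and its call was lost without B51 (3.84, adjusted p = 0.107). The cyclin gene Ccnd1 rose in all B6 lines, from 63.4, 94.4 and 89.5 to 283, 258 and 325 (1.81), but was higher in EpiLCs in only 13 of 33 BXD lines. Not all members rose: Ier3 (-2.34) and Dusp14 (-1.02) fell.

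In the LIF-STAT3 list, 11 of 14 tested genes fell, against 28.5% of all genes, and 2 rose, with a median of -0.99. The receptor Lifr was at 100.4, 102 and 90.6 in ESCs and 10.96, 7.71 and 10.1 in EpiLCs (log2 difference -3.23, SE 0.11, limma adjusted p = 4.42e-09). Its shared subunit Il6st fell by less (-1.81), and the kinase Jak1 less again (-0.75). Stat3, the transcription factor of the pathway, was at 96.6, 97.4 and 98.8 in ESCs and 11.7, 8.77 and 11.4 in EpiLCs (log2 difference -3.09, SE 0.096, limma adjusted p = 2.65e-09). Socs3, a STAT3 target that inhibits the receptor, went from 155, 97.7 and 118 to 11.6, 8.93 and 10.9 (-3.42). Receptor, transducer and target were thus all low in each EpiLC library. Socs2 (2.06) and Pim1 (0.71) rose instead.

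Wnt receptors moved both ways. Fzd5 fell from 138, 147 and 142 to 27.5, 20.9 and 25.8 (log2 difference -2.49, SE 0.096, limma adjusted p = 1.13e-08) and Fzd10 fell (-2.04), whereas Fzd7 (1.55) and Fzd8 (1.3) rose. Axin2, a feedback target of beta-catenin, fell from 23.5, 29.4 and 25.02 to 9.43, 7.52 and 11.7 (-1.37), and so did the secreted inhibitor Sfrp1 (-2.27). In the list as a whole 4 of 13 tested rose and 7 fell. The Nodal list had 9 rises and 4 falls of 15, near the shares of all genes (45.8% and 28.5%). Nodal itself fell from 70.2, 72.7 and 75.8 to 40.9, 39.9 and 40.1 (-0.84) and its receptor Acvr1b fell too (-0.83). The inhibitors Lefty1 and Lefty2 moved apart, Lefty1 rising (18.7, 12.6 and 12.6 in ESCs and 68.4, 63.6 and 55.5 in EpiLCs, log2 difference 2.04) and Lefty2 falling (111, 97.3 and 65.6 in ESCs and 18.9, 14.9 and 15.3 in EpiLCs, log2 difference -2.38). Foxh1, the DNA-binding partner of SMAD2 in this pathway, rose (2.12), and the convertase Pcsk6 fell (-2.16). Of 11 tested BMP genes 2 rose and 4 fell, led by the inhibitory Smad7 (88.6, 100.1 and 97.5 in ESCs and 17.7, 12.1 and 18.4 in EpiLCs, log2 difference -2.51).

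Genes that add, read or remove DNA methylation moved both ways besides the rise of Dnmt3a and Dnmt3b. Tet2, which oxidises methylated cytosine, fell from 147, 209.8 and 195 to 18.04, 13.8 and 15.2 (log2 difference -3.46, SE 0.16, limma adjusted p = 1.17e-06). Tet1 fell less (-0.88), and Tet3 rose from 6.93, 7.66 and 10.1 to 39.6, 34.1 and 52.3 (2.21). The 3 oxidases thus went different ways with no overlap between states. Dnmt3l, the cofactor without catalytic activity, was at 114, 140.4 and 182 in ESCs and 126, 127 and 139.7 in EpiLCs and did not pass (log2 difference -0.12), though it did under 3 other scalings, median-ratio scaling among them (-0.299, adjusted p = 0.0209). The maintenance enzyme Dnmt1 did not pass either (0.052), and its partner Uhrf1 fell slightly (-0.37). Zfp57, which protects imprints during reprogramming, fell (-2.04). Of 17 tested genes of this list 5 rose and 7 fell.

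Imprinted genes, which are expressed from 1 parental allele, rose in 17 of 24 tested, against 45.8% of all genes, and fell in 5, with a median log2 difference of 1.28. Mest was at 14.3, 24.7 and 21.3 in ESCs and 298, 284 and 328 in EpiLCs (log2 difference 3.88, SE 0.14, limma adjusted p = 7.87e-08). Cdkn1c, a cyclin-dependent kinase inhibitor, was at 2.09, 2.46 and 2.17 in ESCs and 27.9, 29.7 and 28.7 in EpiLCs (log2 difference 3.2, SE 0.102, limma adjusted p = 3.05e-09). The noncoding genes Meg3 (2.56) and Rian (2.22) of the Dlk1-Dio3 domain rose, and so did Peg10 (2.33) and Snrpn (2.09). Both maternally and paternally expressed genes were among the rises. Plagl1, a paternally expressed zinc finger gene, fell from 42.2, 43.98 and 43.6 to 2.42, 1.62 and 2.82 (-3.77), as did Igf2 (-0.82).

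Lineage genes were examined for other cell types. Early neural genes rose in 8 of 11 tested, each more than 2-fold (11.3% of all genes did), and fell in 2, of which 1 was lost on leaving out any line. Sox1 was at 3.39, 2.83 and 4.45 in ESCs and 37.8, 30.2 and 37.5 in EpiLCs (log2 difference 3.0, SE 0.103, limma adjusted p = 5.35e-09), Nes rose (2.11) and Map2 rose (1.81). For the neurofilament genes Nefl and Nefm the annotation places one inside the span of the other, so their reads may not be separable. Trophectoderm genes fell in 6 of 7 tested, against 28.5% of all genes, led by Tead4 (43.3, 48.7 and 42.4 in ESCs and 1.99, 2.202 and 2.21 in EpiLCs, log2 difference -3.87) and Krt19 (-2.64). Of 8 tested primitive endoderm genes 5 fell and 3 rose. Its defining factor Gata4 was near the floor in both states (2.87, 2.19 and 2.94 in ESCs and 0.995, 1.08 and 1.14 in EpiLCs). Only 3 of the mesendoderm genes were in both tables, and Eomes, a T-box factor of the primitive streak, fell from 12.3, 14.4 and 15.03 to 1.34, 1.495 and 1.71 (-2.56). Germline genes were divided, with 7 of 17 rising and 9 falling. Prdm1 (-3.08) and Tfap2c (-2.12), regulators of germ cell specification, fell, and Ddx4 (1.43) and Mael (2.05) of the piRNA pathway rose.

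Of 25 tested genes of epithelial adhesion and polarity 15 rose and 7 fell, near the shares of all genes (45.8% and 28.5%). Epcam was at 74.7, 63.7 and 62.1 in ESCs and 283, 318 and 290.3 in EpiLCs (log2 difference 2.14, SE 0.089, limma adjusted p = 1.80e-08). Esrp1, an epithelial splicing regulator, was at 9.68, 7.11 and 4.56 in ESCs and 106, 100.2 and 119 in EpiLCs (log2 difference 3.8, SE 0.21, limma adjusted p = 2.47e-05), with line B51 lowest in ESCs. The keratins Krt8 (1.6) and Krt18 (1.65) and the tight junction gene Cldn7 (2.29) rose. Cdh1, E-cadherin, did not pass (737, 627 and 582 in ESCs and 771, 671 and 817 in EpiLCs, log2 difference 0.22), while Cdh2, N-cadherin, rose from 6.84, 8.84 and 7.97 to 19.2, 16.7 and 21.1 (1.17). Matrix genes differed. Fn1, fibronectin, was at 3452, 2341 and 2881 in ESCs and 265, 182 and 232 in EpiLCs (log2 difference -3.67, SE 0.086, limma adjusted p = 5.26e-10), and the laminin chains Lama1 (-3.16) and Lamc1 (-1.99) fell, whereas Lama5 did not pass (0.011) and Lamb1 rose (0.43). Vim, an intermediate filament gene of the same list, fell (-2.03).

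Fibroblast markers also fell. Of 17 tested fibroblast (feeder) markers 14 fell, against 28.5% of all genes, and 2 rose, with a median log2 difference of -2.67. Their summed level was 2217, 1766 and 2223 ppm in ESCs and 179, 167 and 197 in EpiLCs. Col1a1, a collagen chain, was at 669.6, 474 and 652 in ESCs and 12.7, 8.72 and 14.6 in EpiLCs (log2 difference -5.54, SE 0.079, limma adjusted p = 3.36e-11). No ESC library lacked these transcripts, and B44 had the lowest sum in both states. Col1a2 (-4.53) and Lox (-4.67) fell likewise. Thy1 fell less (-0.66), Dcn rose from 3.06, 3.33 and 2.87 to 7.79, 9.06 and 9.03 (1.24), and the rise of Mmp2 (0.32) was lost with median-ratio scaling (0.15), under 2 other scalings or without the line block (adjusted p = 0.0645). Ccdc80, Lum, Pdgfrb, Postn and Prrx1 were listed in the ESC table only. Macrophage markers, a list added after the data had been seen, showed the same direction: all 3 tested fell, and 16 more of the list were in the ESC table only. Their summed level was 215, 209 and 219.9 ppm in ESCs and 13.5, 9.68 and 12.8 in EpiLCs, and Laptm5, a lysosomal protein of haematopoietic cells, carried most of it (187, 178 and 195 in ESCs and 8.74, 5.15 and 7.54 in EpiLCs). The part of other cells in the falls of Fn1, Vim, Lamc1, Sparc (-2.94), Laptm5 and the interferon genes below was not tested.

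**Figure D3:**
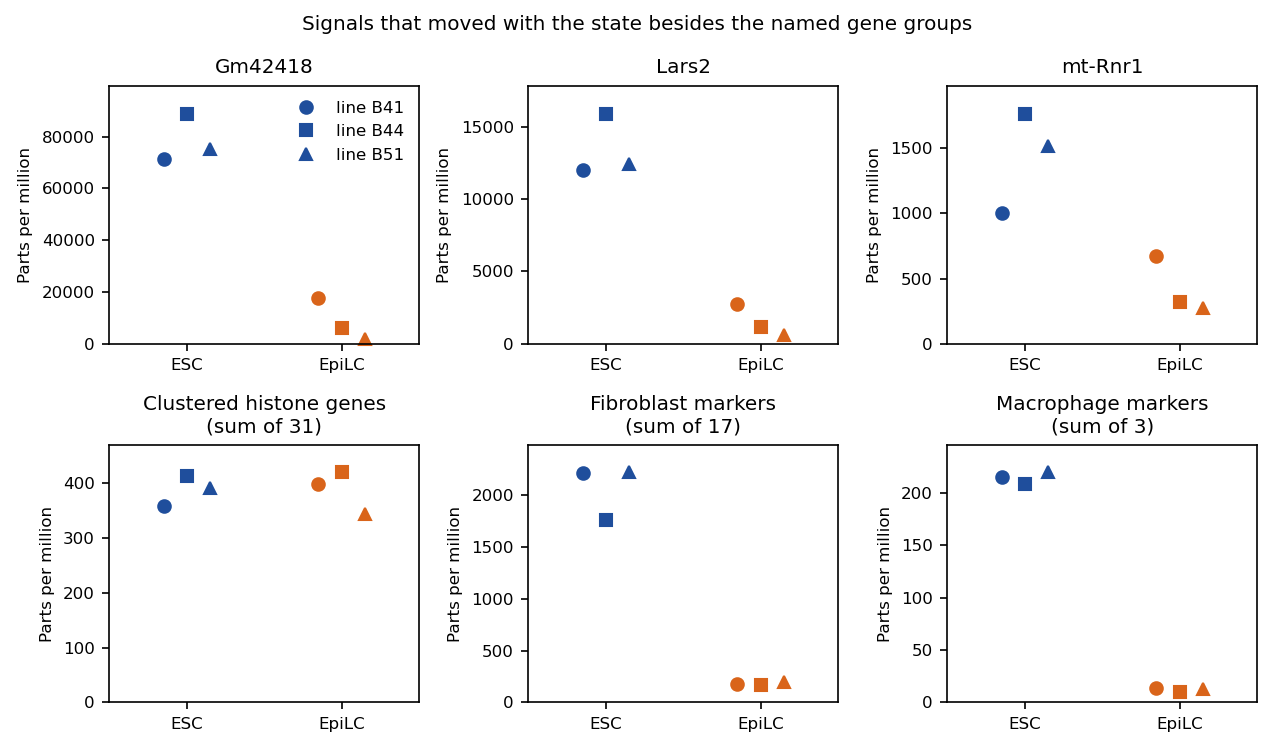
Level in ppm (linear axes from 0) of Gm42418, Lars2 and mt-Rnr1 and of the summed histone, fibroblast and macrophage lists in each B6 library, with 1 symbol per line, ESCs in blue and EpiLCs in orange. Fibroblast and macrophage sums were high in all 3 ESC libraries and low in all 3 EpiLC libraries, whereas the histone sums overlapped. Laptm5 carried most of the macrophage sum.

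Antigen presentation and interferon-induced genes fell in 9 of 13 tested, against 28.5% of all genes, with a median of -1.31. B2m, the class I light chain, was at 80.9, 84.1 and 87.1 in ESCs and 10.7, 13.3 and 12.1 in EpiLCs (log2 difference -2.71, SE 0.084, limma adjusted p = 2.74e-09). It was lower in each EpiLC library than in each ESC library. Tapbp, which loads peptides onto class I molecules, fell too (-3.26). H2-D1 fell (-0.99) while H2-K1, the other classical class I gene here, rose from 37.6, 32.9 and 44.4 to 76.2, 69.97 and 74.2 (0.93). Reads of the class I genes may be shared between near-identical copies. A second rise in this list was lost with median-ratio scaling or without B51.

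Metabolic lists differed in direction. Cholesterol synthesis genes rose in 20 of 23 tested (45.8% of all genes did), 13 of them more than 2-fold (11.3% of all genes), with a median log2 difference of 1.19. Lss, which forms the sterol ring system, was at 77.6, 70.5 and 75.9 in ESCs and 250.3, 236 and 243 in EpiLCs (log2 difference 1.69, SE 0.071, limma adjusted p = 1.95e-08). In each line the EpiLC value was more than double the ESC value. Mvd (1.61), Hsd17b7 (1.66) and Sqle (1.3) rose, as did the regulator Srebf2 (0.48). Ebp, a sterol isomerase, fell (35.7, 41.5 and 43.1 in ESCs and 13.2, 14.4 and 12.2 in EpiLCs, log2 difference -1.53). Insig1 fell slightly (-0.32), a call lost without B41 (-0.204, adjusted p = 0.179) or with the spread shared over 12 libraries (adjusted p = 0.06297).

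Glycolysis genes fell in 12 of 22 tested, against 28.5% of all genes. Pfkp, a phosphofructokinase, was at 344, 256 and 324 in ESCs and 20.5, 16.5 and 15.7 in EpiLCs (log2 difference -4.06, SE 0.090, limma adjusted p = 4.05e-10), and the glucose transporter Slc2a3 at 2272, 1784 and 2095 in ESCs and 293, 329 and 292 in EpiLCs (-2.74). Hk1 (-2.87) and Hk2 (-1.31) fell too, whereas the other transporter, Slc2a1, did not pass (-0.013). Of 5 rises, 3 were left without B41, without B51 or with median-ratio scaling. The strongest was Pdk1, a pyruvate dehydrogenase kinase (80.04, 79.4 and 107 in ESCs and 298, 325 and 282 in EpiLCs, log2 difference 1.77). In one-carbon and amino acid metabolism Mat2a (2.0), Phgdh (0.75) and the cystine transporter Slc7a11 (1.93) rose, and Asns, asparagine synthetase, fell (922, 824 and 796 in ESCs and 202, 181 and 175 in EpiLCs, log2 difference -2.18). Nuclear respiratory chain genes fell in 38 of 88 tested and rose in 16, against 28.5% and 45.8% of all genes, with a median of -0.19, and without B51 the falls numbered 25. Ribosomal protein genes fell in 21 of 81 tested and rose in 6, against 28.5% and 45.8% of all genes. The count of falls was 7 without B41, 52 without B44 and 4 without B51, and 43 with median-ratio scaling.

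Cyclin genes moved both ways. Ccnd3 was at 257, 262 and 281 in ESCs and 74.6, 67.4 and 75.1 in EpiLCs (-1.87) and Ccnd2 fell (-1.49), whereas Ccne1 was at 81.1, 113 and 94.05 in ESCs and 256, 287 and 268 in EpiLCs (1.49) and Ccne2 rose (1.44). With the rise of Ccnd1, the 3 D-type cyclins therefore did not move together. Cdkn1a, the p53-induced inhibitor p21, fell from 243, 199 and 219.6 to 62.5, 55.2 and 60.03 (log2 difference -1.88, SE 0.072, limma adjusted p = 1.07e-08). Another p53 target, the apoptosis gene Pmaip1, rose from 59.8, 43.8 and 55.2 to 449.7, 449 and 476 (log2 difference 3.1, SE 0.091, limma adjusted p = 1.99e-09). In the p53 list 4 of 19 tested rose and 9 fell. Among Polycomb genes 5 of 17 rose and 7 fell. The H3K27 methyltransferase subunits Suz12 (-0.67) and Eed (-0.71) fell, while the catalytic subunit Ezh2 did not pass (0.068). Cbx2 (1.01) and Pcgf6 (1.03) of the other Polycomb complexes rose. Of the heterochromatin list 11 of 20 rose and 4 fell, led by the H3K9 methyltransferase Suv39h1 (1.48). Housekeeping genes, as a control list, rose in 2 of 12 tested and fell in 1, with a median of 0.10 that became -0.073 with median-ratio scaling.

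Some large differences were not shared evenly by the lines. Among the 2522 genes beyond 2-fold the median range between the 3 lines' log2 differences was 0.32, and it exceeded 1 in 76 genes (3.01%). Gm42418, a locus with ribosomal RNA sequence, was at 71405, 88856 and 75239 in ESCs and 17850.0, 6021 and 1828 in EpiLCs (log2 difference -3.75, SE 0.86, limma adjusted p = 0.0405). Lars2, whose gene contains a ribosomal RNA-like stretch, was at 11995, 15920.0 and 12431 in ESCs and 2769.5, 1135 and 629.8 in EpiLCs (log2 difference -3.41). Together they held 8.34, 10.5 and 8.77% of the ESC libraries and 2.06, 0.716 and 0.246% of the EpiLC libraries. Line B41 kept the highest share in EpiLCs. Without B44 neither passed (adjusted p = 0.265 and 0.2003). Gm42418 also missed the threshold with quantile normalization (-2.55, adjusted p = 0.191), with the values as deposited (adjusted p = 0.0547) and with itself and Lars2 out of the totals (adjusted p = 0.0558). Taking these genes out of the totals gave 4571 rises and 3944 falls over all genes. The mitochondrial ribosomal RNA mt-Rnr1 followed the same line order (1001, 1766 and 1519 in ESCs and 672, 321 and 273 in EpiLCs) and did not pass (log2 difference -1.83, limma adjusted p = 0.0726). It did pass with all lines but no line block (adjusted p = 0.0129), without the trend and robust options (0.00284) or with the spread shared over 12 libraries (0.0152), and without B41 (log2 difference -2.46).

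Clustered histone genes, whose transcripts mostly lack a poly(A) tail, fell in the majority. Of 31 tested, 19 fell, against 28.5% of all genes, and 3 rose (12 falls without B44), and 16 more were listed in the ESC table only. Hist1h2bg was at 18.05, 19.9 and 18.97 in ESCs and 8.69, 3.28 and 1.55 in EpiLCs, with B41 again highest in EpiLCs, and lost its call without B44 (adjusted p = 0.261). The near-identical pair Hist1h2ap (95.4, 92.8 and 95.5 in ESCs and 159, 199.8 and 177 in EpiLCs) and Hist1h2ao (10.4, 18.1 and 11.2 in ESCs and 94.1, 140.1 and 118 in EpiLCs) rose, and reads may be split between them. The summed level of the list overlapped between states (358, 414 and 392 in ESCs, 399, 419.6 and 343 in EpiLCs). The part of library preparation in these differences was not tested.

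ATAC-seq of the same 3 lines gave a second readout of the transition. Regions were taken as shared where an ESC region and an EpiLC region overlapped each other 1 to 1 over at least 50% of both, which left 59294 regions, 18855 of them within 1 kb of a transcription start. Libraries held 16277662 to 23095959 reads in regions. Of the promoter regions 10684 became more accessible (56.7%) and 3815 less (20.2%) by limma on the deposited values. Over all shared regions the balance was even, with 21122 higher (35.6%) and 22663 lower (38.2%). The scale is relative within each library, so the balance of rises and falls depends on it.

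Each gene was given 1 region, the one with the highest summed signal within 1 kb of any annotated transcript start. That region may lie at an internal start of the gene. For 10134 tested genes with a promoter region, 6465 regions rose (63.8%) and 1124 fell (11.1%). For the 1114 of these whose RNA rose more than 2-fold, 924 regions rose (82.9%) and 46 fell (4.13%). For the 1031 whose RNA fell more than 2-fold, 452 regions rose (43.8%) and 343 fell (33.3%). A fall of RNA was thus accompanied by a rise of promoter accessibility more often than by a fall in these lines. Against all genes tested, however, such rises were less frequent (43.8% against 63.8%) and falls more frequent (33.3% against 11.1%). The median accessibility log2 difference was 0.42 for the first group, 0.074 for the second and 0.22 for all. Of 13 naive genes with a region, 10 regions fell and 2 rose. Of 16 formative genes, 15 regions rose and none fell (the 1 left did not pass). Of 13 fibroblast markers, 10 regions rose while 14 of 17 RNAs fell, and Col1a1 was among them (0.68). Only 2 macrophage markers had a region. That of Laptm5 fell (20.98, 23.4 and 23.8 in ESCs and 6.21, 5.58 and 4.98 in EpiLCs, log2 difference -2.01). That of Cd68 rose (0.24).

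Naive genes lost promoter accessibility to very different extents. Promoter windows of 4 genes are printed as examples: Klf4, which changed little, Nanog and Nr5a2, which lost more of their signal, and Dnmt3a, which gained. Each runs 5′ to 3′ from 250 bases before to 50 after a transcription start in RefSeq (GRCm38.p6), which for Nr5a2 is internal. Capitals mark CG dinucleotides, the target of DNA methylation. CG reads the same on both strands and does not overlap itself.
Klf4 (chr4:55532426-55532725, minus strand): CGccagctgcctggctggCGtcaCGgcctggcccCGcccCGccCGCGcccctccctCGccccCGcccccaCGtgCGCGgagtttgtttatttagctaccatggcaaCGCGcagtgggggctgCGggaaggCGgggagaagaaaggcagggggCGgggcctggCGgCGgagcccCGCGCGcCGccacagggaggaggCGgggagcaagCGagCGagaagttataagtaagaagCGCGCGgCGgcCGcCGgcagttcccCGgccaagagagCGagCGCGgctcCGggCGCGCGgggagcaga
Nanog (chr6:122707239-122707538, plus strand): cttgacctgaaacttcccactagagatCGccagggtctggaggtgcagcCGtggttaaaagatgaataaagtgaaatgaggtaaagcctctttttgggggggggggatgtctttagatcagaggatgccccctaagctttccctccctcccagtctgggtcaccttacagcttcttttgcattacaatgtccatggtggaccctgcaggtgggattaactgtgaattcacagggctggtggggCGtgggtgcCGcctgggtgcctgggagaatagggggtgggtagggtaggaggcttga
Nr5a2 (chr1:136953581-136953880, minus strand): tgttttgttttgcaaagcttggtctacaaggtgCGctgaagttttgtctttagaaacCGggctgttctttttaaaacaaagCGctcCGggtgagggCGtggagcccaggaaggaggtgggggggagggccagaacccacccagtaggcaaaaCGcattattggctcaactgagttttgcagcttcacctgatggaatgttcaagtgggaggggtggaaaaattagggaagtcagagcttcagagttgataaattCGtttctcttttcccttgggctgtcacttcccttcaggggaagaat
Dnmt3a (chr12:3806730-3807029, plus strand): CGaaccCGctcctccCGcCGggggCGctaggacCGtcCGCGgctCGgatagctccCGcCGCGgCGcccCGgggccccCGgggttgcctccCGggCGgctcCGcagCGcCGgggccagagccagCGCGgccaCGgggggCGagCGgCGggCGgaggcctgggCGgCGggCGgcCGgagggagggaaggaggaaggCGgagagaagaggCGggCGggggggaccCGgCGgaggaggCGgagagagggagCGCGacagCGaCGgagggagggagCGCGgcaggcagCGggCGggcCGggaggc

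The Klf4 window holds 40 CG and the Dnmt3a window 46, against 4 for Nanog and 7 for Nr5a2. Over all 32851 windows of the RefSeq table the median was 7, and 94.6% held at least 1 CG. At least as many CG as Klf4 were found in 3.91% of windows and at least as many as Dnmt3a in 1.65%. Each window lies inside the ATAC region described for its gene.

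At Klf4 (region chr4:55528870-55534550) the ATAC values were 53.96, 53.9 and 57.2 in ESCs and 49.9, 52.2 and 51.2 in EpiLCs (log2 difference -0.11, SE 0.043, limma adjusted p = 0.0218). The drop was small beside the near-complete loss of Klf4 RNA. At Nanog (region chr6:122705612-122708711) they were 30.1, 30.6 and 27.98 and then 16.8, 16.3 and 16.7 (-0.83, SE 0.056, limma adjusted p = 4.52e-23). At Nr5a2 (region chr1:136950719-136955124) they were 46.4, 48.7 and 44.9 and then 20.6, 18.9 and 20.2 (-1.23, SE 0.051, limma adjusted p = 5.06e-35). For both, every EpiLC library lay well below every ESC library. The region and window of Nr5a2 lie inside the gene (chr1:136842571-136960448, minus strand), away from the annotated 5′ end. At Dnmt3a (region chr12:3805798-3809315) the values rose from 26.3, 24.7 and 25.6 to 33.8, 36.5 and 34.5 (0.45, SE 0.051, limma adjusted p = 1.10e-12).

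Other naive promoters spanned a wider range. Tdh (-1.72), Fbxo15 (-1.63), Klf2 (-1.11) and Tbx3 (-0.98) lost accessibility, Klf5 did not pass (-0.028), and the region taken for Esrrb gained slightly (0.16). That Esrrb region (chr12:86421116-86422992) lies inside the gene (chr12:86361117-86521628, plus strand). Accessibility at the 5′ end of Esrrb is not given here. Dppa3 gained accessibility (0.89) while its RNA fell. The window of Klf2 holds 32 CG, and the window that overlaps the internal region of Esrrb holds 7. Whether the number of CG bears on these differences was not tested. Among the 7 naive genes with both a region and a window, the median CG count was 10.5 where the region fell (6 genes) and 7 where it rose (1 gene). Jam2, among the largest RNA falls, lost more (-1.78) than the naive promoters named here. Its region (chr16:84793157-84794446) lies inside the gene (chr16:84774123-84825928, plus strand), away from the 5′ end. Among the rising genes Sox4 (1.09), Lin28a (1.01), Pou3f1 (0.89), Mest (0.86) and Myc (0.62) gained. Among genes whose RNA fell more than 2-fold, 678 had a promoter window in the table. The median CG count was 21 where the region rose (295 genes) and 16 where it fell (219 genes). The direction was the same over all genes tested, at 24 (4822 genes) and 20 (723 genes). Among genes whose RNA rose more than 2-fold the medians were 24 (659 genes) and 13 (29 genes).

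**Figure D4:**
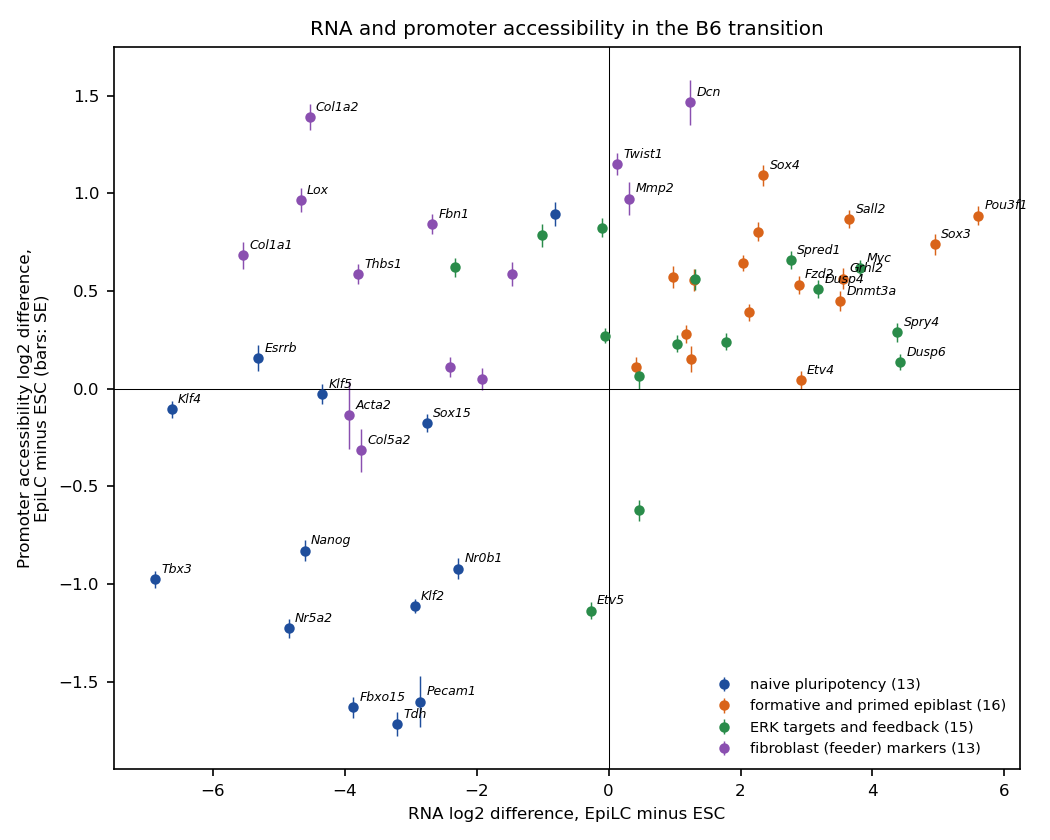
Log2 difference of promoter accessibility (vertical axis, bars are the SE) against log2 difference of RNA (horizontal axis), EpiLC minus ESC, for the naive, formative, ERK and fibroblast genes with a promoter region, 1 point per gene. Formative genes lie to the right at or above 0, naive genes lie to the left over a wide vertical range, and most fibroblast genes lie to the left and above 0.

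The transition was compared between strains by a test of the difference, D2 minus B6, in 1 fit over 12 libraries with 3 lines per strain and state. Of 11745 genes tested, 4176 differed (35.6%), 1862 with a more positive change in D2 (15.9%) and 2314 with a more negative one (19.7%). The B6 changes are part of this contrast, so the values are given side by side and not correlated. In the naive list 15 of 17 genes differed, against 35.6% of all genes, 14 towards a more positive change in D2. Their fitted changes were mostly negative in both strains and smaller in D2. For Nr5a2 the difference was 2.65 (SE 0.21, limma adjusted p = 1.41e-05), at 71.2 ± 7.2 in D2 ESCs and 14.8 ± 2.42 in D2 EpiLCs (SD, n = 3). Nanog was the exception, with a difference of -0.74. In the formative list 10 of 19 differed, 9 towards a smaller change in D2, among them Dnmt3b (-1.78) and Sall2 (-1.97), whereas Pou3f1 did not pass (-0.196, SE 0.16).

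The 5 genes with the most negative and the 5 with the most positive difference are given by the same rule on level. Meis2, a TALE homeobox gene, rose in B6 (1.81, 1.73 and 2.13 in ESCs and 22.2, 18.5 and 17.8 in EpiLCs) and stood at 15.2 ± 5.34 in D2 ESCs and 3.37 ± 0.198 in D2 EpiLCs (SD, n = 3), a difference of -4.66 (limma adjusted p = 4.33e-07). Pigp rose in B6 (6.58, 6.28 and 7.902 in ESCs and 11.9, 17.2 and 12.01 in EpiLCs) and stood at 110.0 ± 8.17 in D2 ESCs and 26.9 ± 1.66 in D2 EpiLCs (SD, n = 3). The order of the states was thus opposite in the 2 strains for both. The same held for H2-K1 (-2.83). Nphs1, the slit diaphragm gene nephrin, barely moved in B6 (7.11, 5.61 and 5.32 in ESCs and 7.62, 7.06 and 8.59 in EpiLCs, log2 difference 0.33, lost without B44 or B51 and under 5 other settings, with 0.17 after median-ratio scaling) and stood at 1.104 ± 0.489 in D2 ESCs and 38.7 ± 4.32 in D2 EpiLCs (SD, n = 3). Its neighbour Kirrel2 did likewise (3.77). Pou2f3 fell in B6 (32.5, 37.9 and 44.7 in ESCs and 8.003, 8.06 and 9.45 in EpiLCs) and stood at 5.87 ± 1.73 in D2 ESCs and 19.4 ± 0.209 in D2 EpiLCs (SD, n = 3). Gpx2 changed little in B6 (-0.38, lost without B41 or B44 or with the spread shared over 12 libraries) and rose in D2 (4.55 ± 2.12 in D2 ESCs and 48.5 ± 5.62 in D2 EpiLCs (SD, n = 3)). Ubd fell in B6 from 20.4, 19.6 and 18.1 to 0.562, 0.997 and 0.762 and was listed at 0 in all D2 libraries of both states. For the polymorphic class I gene and Ubd, the part of read mapping to a B6 reference was not tested. In BXD lines, which carry either allele, the log2 difference of Meis2 ranged from -3.14 to 3.21 and that of Nphs1 from -0.36 to 4.27.

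**Figure D5:**
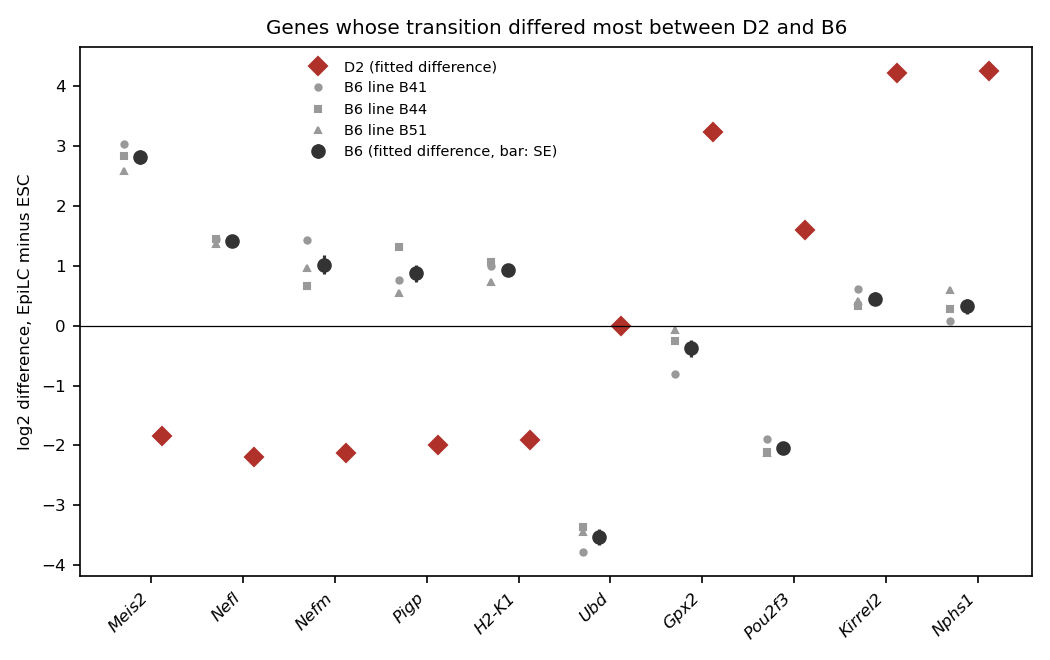
Fitted log2 difference, EpiLC minus ESC, of the 10 genes whose transition differed most between strains, for B6 (dark circles, bars are the SE; grey symbols are the single lines) and D2 (red diamonds). Meis2, Nefl, Nefm, Pigp and H2-K1 lie above 0 in B6 and below 0 in D2, and Ubd has no usable D2 fold because it was listed at 0 there.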

How the data were processed

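RNA was extracted with a column kit and made into mRNA libraries (KAPA mRNA HyperPrep kit), per the labels' protocols. The deposited RNA values are a normalised signal with nearly equal library totals (962136 to 1019490); the sources used here do not say how reads were counted, with which annotation or strand setting. Per the submitters' processing notes the tools were Bowtie 1.0.0, HISAT2 2.0.5, MACS 1.4.2 and Cell Ranger with build mm10, without their roles. The deposited ATAC signal came out as whole multiples of a step (100% of values, tolerance 0.05), so reads were recovered. Of the tables used, 111 columns of values of other groups were left out.

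RNA was rescaled to 1000000 over shared genes and fitted on log2(value + 1) for genes with a mean of at least 0.5, using limma 3.58.1 in R 4.3.3 (trend and robust options) with the line as a block. The pairing comes from the shared cell line. Deviations of same-line libraries correlated at 0.027 to 0.035 across genes, and those of different lines at -0.059 to 0.025. ATAC was fitted by limma on log2(value + 0.1), with edgeR 4.0.16 on the recovered reads as an alternative. The D2 contrast used 12 libraries and the BXD contrast 33 paired lines. Symbols were found for 11699 of 11755 genes. The fit was tested on simulated data with 11711 genes, of which 200 changed: it recovered 82% at a log2 size of 1 and 99% at 2, with 3 false calls. In the data 8710 genes passed, so these values do not give the recovery or false calls there. Named genes were the 12 largest changes each way, the 5 largest strain differences each way, and members of 37 gene lists; pseudogenes and near-identical copies were left out of the first, and some genes these rules take are not reported here. Members and lists were chosen with earlier results of these data known. Alternatives covered the pseudocount, filter, scaling, line block, shared spread and each line left out in turn. Figures used Python 3.11.15, pandas 2.3.3 and matplotlib 3.10.9.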

Additional observations from a re-analysis of the deposited data

Results flagged for a closer look

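The test of the difference between strains singled out 4176 genes whose EpiLC minus ESC change differed between D2 and B6 (limma, adjusted p under 0.05, 3 lines per strain). The 10 largest differences among genes with a mean of at least 10 ppm in the higher state are given as D2 minus B6 on the log2 scale. More negative in D2 were Meis2 (-4.66), Nefl (-3.61), Nefm (-3.16), Pigp (-2.87) and H2-K1 (-2.83). More positive in D2 were Nphs1 (3.93), Kirrel2 (3.77), Pou2f3 (3.64), Gpx2 (3.62) and Ubd (3.53). The limma adjusted p of these ran from 4.33e-07 for Meis2 to 0.00269 for Nefm. The value for Ubd reflects the B6 fall alone, since Ubd was listed at 0 in D2. Whether these differences come from the strains' alleles or from mapping D2 reads to a B6 reference was not tested.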

How the results depend on the processing

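Every named gene that passed the test kept its direction under each setting run; calls lost on leaving out a line are given beside each gene. Of the counts over all genes, the rises beyond 2-fold went from 1328 to 845 with a pseudocount of 5, which shrinks low genes. Promoter regions numbered 5305 higher and 1702 lower when regions had to overlap over 80%, with fewer regions tested. Without the replicate block 5360 genes rose and 3354 fell, and the block changed the calls of 4 of 213 named genes. The B6 rises beyond 2-fold and falls beyond 2-fold were 1120 and 1308 with quantile normalization, and 1164 and 1278 with the values as deposited. Leaving out 1 line at a time gave 4784 to 5420 rises, 2957 to 3431 falls and 2986 to 4249 strain differences. edgeR on the recovered ATAC reads called 10737 promoter regions higher and 3834 lower; this and the totals without Gm42418 and Lars2 were chosen after seeing the data. In simulated data with 200 changed genes and 3 lines, changes of 2-fold were recovered less often than larger ones. The recovery in the data is not known from this. The depth of the RNA libraries is unknown, so low values cannot be given a counting limit.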

Other observations

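Genes listed in 1 table only carry values but no comparison, since absence from a table is not a measured 0. Their values were rescaled by the same library totals over the shared genes. The 975 genes of the ESC table alone had a median value of 2.55, and 82 averaged at least 10. Gpnmb, a glycoprotein of macrophages and pigment cells, led at 86.97, 137 and 99.9. Col12a1, a fibroblast collagen (70.95, 49.5 and 70.5), the macrophage genes Lyz2 (31.2, 39.7 and 38.6) and Ctss (31.02, 39.2 and 36.1), the microtubule gene Mapt (54.5, 56.5 and 61.1), the immediate early gene Fos (66.5, 41.9 and 53.8) and Mitf (43.8, 41.3 and 38.9) were among the highest. The 980 genes of the EpiLC table alone had a median of 2.79, and 89 averaged at least 10. Epha1, an ephrin receptor, led at 113, 106 and 145. Also high were Greb1l (89.1, 87.2 and 88.1), Vrtn (81.7, 76.2 and 89.3) and the junctophilin gene Jph4 (72.5, 61.8 and 82.5). Peripherin (Prph, 53.9, 51.8 and 52.4) and the Wnt co-receptor gene Ror1 (42.3, 40.2 and 48.2) were also found there only. These genes were chosen by their level in the 1 table that lists them.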
